A study of Mus musculus with 4 samples.

Results

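The transforming growth factor beta (TGF-beta) ligands, receptors and SMAD proteins were examined as 10 genes, Tgfb1, Tgfb2, Tgfb3, Inhba, Tgfbr1, Tgfbr2, Smad2, Smad3, Smad4 and Smad7, chosen by gene symbol from a table of 24527 symbols. All 10 were found in the table, and all 10 were among the 12728 genes that averaged 1 CPM or more over the libraries, where CPM is a count divided by the library size in units of 1e+06 reads after TMM scaling. RNA was sequenced from 4 sources of B16F10, a mouse melanoma cell line, with 1 library each. They were a 2D monoculture (the monoculture), a 2D co-culture with NIH/3T3 mouse fibroblasts (the co-culture), spheroids grown with NIH/3T3 cells, and tumors. The tumors grew under the skin of 1-year-old female C57BL/6 mice. All 4 libraries are labeled wild type. In the study's methods, a B16F10 line carrying green fluorescent protein was sorted away from the fibroblasts after culture. The methods speak of sorted cells for the tumor too, whereas the label of that library describes snap-frozen tumor tissue. Fibroblasts, melanoma cells and host are all mouse, so the reads themselves do not separate them.

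In this pathway, TGF-beta is secreted in a latent form that is held in the extracellular matrix until it is activated. The active ligand binds the type II receptor TGFBR2, which recruits and phosphorylates the type I receptor TGFBR1, and TGFBR1 phosphorylates SMAD2 and SMAD3, which enter the nucleus with SMAD4. SMAD7 is an inhibitor whose own gene is a target of the pathway, and activins reach the same SMADs through receptors of their own. In melanoma the pathway is known both for restraining growth and for acting on the surrounding fibroblasts, vessels and immune cells.

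With 1 library per source, no difference had a replicate check and none was tested. The totals lay between 118896900 and 150028663 reads, and a level of up to 0.0185 to 0.0262 CPM, or 3 reads, could lie behind a count of 0. Intervals are 95% intervals that cover counting error only. The 8 melanocyte markers together had between 10620 and 18980 CPM in every library. Single ones moved more, and Mitf had 415.8 CPM in the monoculture and 70.3 CPM in the spheroid. With 1 CPM added, 4 of the 8 were lower by more than 2-fold in the spheroid than in the monoculture and 0 higher. Of the 12728 genes, 17.9% were lower and 11.2% higher. The sums of markers of other cell types differed more between libraries. The 9 fibroblast markers summed to 17.6 CPM in the monoculture, 679 CPM in the co-culture and 36.5 CPM in the spheroid, with 2728 CPM in the tumor. The 12 myeloid markers summed to between 11.8 and 30.5 CPM in the cultures and to 2181 CPM in the tumor, the 10 endothelial markers to between 27.8 and 78.8 CPM and to 349.9 CPM, and the 5 skeletal muscle markers to between 3.29 and 12.4 CPM and to 4599 CPM. The 5 platelet markers summed to between 3.88 and 21.2 CPM in the cultures and to 107 CPM in the tumor, and the 8 lymphoid markers to at most 0.213 CPM and to 6.48 CPM. Single genes carried much of some culture sums. These were Egfl7 for endothelium (24.5 to 74.0 CPM), Cd68 for myeloid cells (27.5 CPM in the monoculture) and Itga2b for platelets (19.7 CPM in the spheroid). The median marker had at most 0.0771 CPM (endothelial) and 0.28 CPM (myeloid) in the cultures. Of the defining markers, Cd14, Pf4, Ppbp and Myh4 had no read in the monoculture, and Ms4a1 and Ncr1 had none in any culture. In such bulk libraries, fewer cells of a type and less RNA per cell cannot be told apart.

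The promoters of Tgfb1, Tgfb2 and Inhba are shown because the highest level of these ligand genes lay in the spheroid for the first pair and in the tumor for Inhba. RefSeq promoter entries (GRCm38.p6, the mm10 build) were matched for 6 of the 10 genes, and not for Tgfb3, Smad2, Smad4 and Smad7. Tgfb3, also highest in the spheroid, is left out for this reason. Each sequence is the 250 bases before the annotated start, read on the strand of the gene, at chr7:25686752-25687001 (+ strand) for Tgfb1, chr1:186705990-186706239 (- strand) for Tgfb2 and chr13:16011601-16011850 (+ strand) for Inhba. Capitals mark matches to the motifs searched on both strands, which were CAGAC and GTCTAGAC (SMAD), TGANTCA (AP-1), TGACGTCA (cyclic AMP response) and ACGTG (hypoxia).
Tgfb1: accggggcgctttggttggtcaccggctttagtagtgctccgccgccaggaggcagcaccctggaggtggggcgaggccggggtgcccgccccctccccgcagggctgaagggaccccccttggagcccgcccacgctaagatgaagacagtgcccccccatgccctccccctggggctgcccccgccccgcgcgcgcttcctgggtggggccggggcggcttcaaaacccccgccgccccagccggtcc
Tgfb2: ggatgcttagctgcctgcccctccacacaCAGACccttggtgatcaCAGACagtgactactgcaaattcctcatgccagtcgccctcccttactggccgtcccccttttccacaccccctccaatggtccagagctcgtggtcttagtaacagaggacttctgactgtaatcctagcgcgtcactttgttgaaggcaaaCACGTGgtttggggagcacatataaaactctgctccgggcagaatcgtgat
Inhba: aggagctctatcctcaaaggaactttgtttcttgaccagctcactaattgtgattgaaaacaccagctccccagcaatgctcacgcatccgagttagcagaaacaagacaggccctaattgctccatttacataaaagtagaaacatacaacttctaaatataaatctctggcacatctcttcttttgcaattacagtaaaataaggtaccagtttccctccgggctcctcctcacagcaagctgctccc

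The Tgfb1 promoter was 75.2% G and C, against 53.6% for Tgfb2, 43.2% for Inhba and a median of 52.4% over 32851 promoters. Only the Tgfb2 sequence of these 3 held a match. It had CAGAC at bases 221 to 217 and again at bases 204 to 200 before the start, and ACGTG on both strands at bases 51 to 46, where the matches overlap in 1 palindrome. CAGAC was in 42.2% of all promoters, ACGTG in 16.6%, TGANTCA in 6.75%, TGACGTCA in 1.55% and GTCTAGAC in 0.167%. The Tgfb2 window also overlaps an exon of the antisense gene Gm29491, and the Inhba window lies within the span of B230303A05Rik on the other strand.

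Tgfb1 encodes the ligand that gave the family its name, and it stood out in the spheroid. The gene lies at chr7:25687002-25705077 on the + strand (mm10, as for all genes here). Its level was 24.9 CPM (24.1 to 25.7) in the monoculture, 23.9 CPM (23.0 to 24.8) in the co-culture and 83.3 CPM (81.8 to 84.8) in the spheroid, with 25.6 CPM (24.9 to 26.4) in the tumor. The spheroid alone was high. The tumor and the monoculture had overlapping intervals, as did the flat cultures, so neither pair was ordered, whereas the tumor was above the co-culture by a small margin. The log2 ratio of the spheroid was 1.74 (1.69 to 1.80) to the monoculture, 1.80 (1.74 to 1.86) to the co-culture and 1.70 (1.65 to 1.75) to the tumor, with nothing added to the CPM. The ratio to the monoculture exceeded that of 97.5% of the genes with at least 1 CPM.

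Tgfb3, the third TGF-beta ligand, is at chr12:86056745-86079041 on the - strand and was the most abundant of the 3 in both the monoculture and the spheroid, per length. It had 55.8 CPM (54.6 to 57.1) in the monoculture, 30.4 CPM (29.4 to 31.5) in the co-culture and 156.0 CPM (153.9 to 158.1) in the spheroid, with 15.8 CPM (15.2 to 16.4) in the tumor. No intervals overlapped, and the spheroid exceeded the tumor 9.88-fold. The log2 ratio of the spheroid was 1.48 (1.45 to 1.52) to the monoculture, 2.36 (2.31 to 2.41) to the co-culture and 3.30 (3.25 to 3.36) to the tumor. The tumor was below the monoculture, with a log2 ratio of -1.82 (-1.89 to -1.76). Exons of Gm37804 and Gm48008 on the other strand cover 4.82% and 7.60% of the exonic bases, and the strand setting of the counting is not given in the sources used here, so a small part of these reads could belong to them.

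Tgfb2, the least abundant of the 3 ligands per length, lies at chr1:186622792-186705989 on the - strand. It had 8.72 CPM (8.24 to 9.22) in the monoculture, 10.8 CPM (10.2 to 11.4) in the co-culture and 15.2 CPM (14.5 to 15.8) in the spheroid, with 8.70 CPM (8.25 to 9.16) in the tumor. The spheroid was highest here as well, while the monoculture and the tumor overlapped. The log2 ratio of spheroid to monoculture was 0.80 (0.70 to 0.90), within 2-fold. The antisense gene Gm29491 overlaps 2.42% of its exonic bases.

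**Figure D1:**
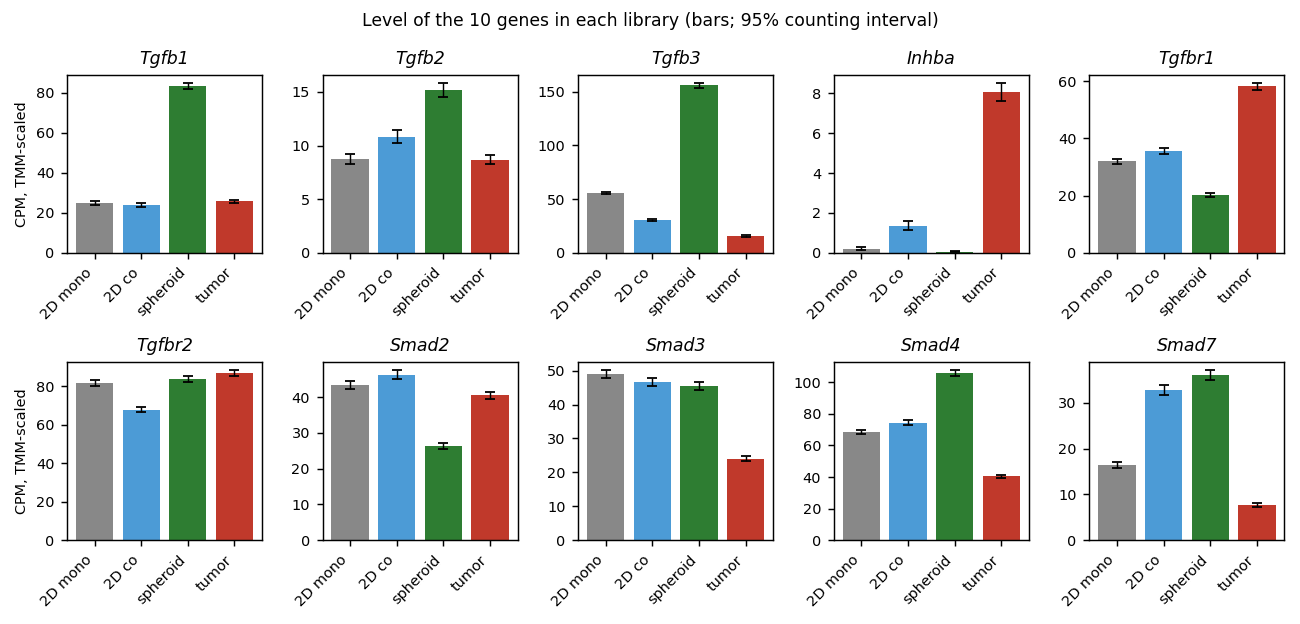
Level of each of the 10 genes in CPM after TMM scaling (vertical axis, its own scale for each gene) in the 4 libraries, with 95% counting intervals. The spheroid bar is the tallest for Tgfb1, Tgfb2, Tgfb3, Smad4 and Smad7, and the tumor bar is the tallest for Inhba (8.07 CPM), Tgfbr1 and Tgfbr2.

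Levels per exonic length allow the 3 ligands to be compared within a library, where scaling between libraries plays no part in a share. Their sum was 29.6 CPM per kb in the monoculture, 22.1 in the co-culture, 87.4 in the spheroid and 18.2 in the tumor. Tgfb3 made up 55.7% of this sum in the monoculture, 40.7% in the co-culture, 52.8% in the spheroid and 25.7% in the tumor. Tgfb1 made up 38.6%, 49.7%, 43.8% and 64.9% in the same order. Thus the most abundant ligand transcript was Tgfb3 in the monoculture and the spheroid, and Tgfb1 in the co-culture and the tumor. These are shares of whole libraries, and the part of fibroblast or host RNA in them was not tested. Tgfb2 stayed between 3.39% and 9.57%. The ratio of Tgfb3 to Tgfb1 per length was 1.44 (1.387 to 1.502) in the monoculture, 0.818 (0.778 to 0.860) in the co-culture, 1.20 (1.18 to 1.23) in the spheroid and 0.396 (0.377 to 0.416) in the tumor. No interval of this ratio overlapped another. These genes have nearly equal GC content, 53.0% for Tgfb3 and 52.5% for Tgfb1.

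**Figure D2:**
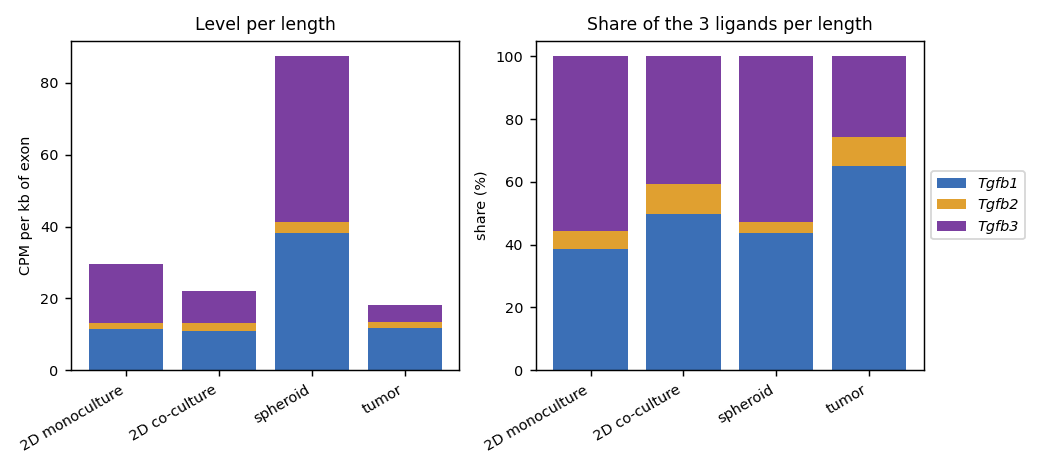
Tgfb1, Tgfb2 and Tgfb3 in CPM per kb of exon (left) and as percent of their sum (right) in each of the 4 libraries, as stacked bars. The spheroid has the largest sum (87.4 CPM per kb), and the tumor has the largest share of Tgfb1 (64.9%).

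Inhba had the widest range of the 10 genes. It encodes the beta A subunit, a pair of which forms activin A, and it lies at chr13:16011851-16031621 on the + strand. It had 0.190 CPM (0.125 to 0.276, 27 reads) in the monoculture, 1.34 CPM (1.14 to 1.57, 154 reads) in the co-culture and 0.0588 CPM (0.0254 to 0.116, 8 reads) in the spheroid, with 8.07 CPM (7.64 to 8.52, 1310 reads) in the tumor. No intervals overlapped, and the spheroid was lowest, below the monoculture. The level in the tumor exceeded that in the spheroid 137-fold. The log2 ratio to the monoculture was 5.41 (4.86 to 6.02) for the tumor and 2.83 (2.23 to 3.47) for the co-culture. For the spheroid it was -1.69 (-3.04 to -0.51), from 8 and 27 reads. With 1 CPM added to both values, the rule by which genes were counted here, these ratios were 2.93, 0.98 and -0.17, so the co-culture and the spheroid counted as within 2-fold. The libraries came in the same order for the summed fibroblast markers except that the spheroid exceeded the monoculture there (36.5 against 17.6 CPM), and the part of fibroblast or host RNA in the Inhba level was not tested.

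The receptor genes differed in range, 2.90-fold for Tgfbr1 and 1.28-fold for Tgfbr2. TGFBR1 is the type I kinase, and its gene, at chr4:47353222-47414931 on the + strand, had 31.98 CPM (31.1 to 32.9) in the monoculture, 35.5 CPM (34.4 to 36.6) in the co-culture and 20.1 CPM (19.4 to 20.9) in the spheroid, with 58.2 CPM (57.0 to 59.4) in the tumor. The spheroid was lowest and the tumor highest, with no overlap. The log2 ratio of spheroid to tumor was -1.53 (-1.60 to -1.47). TGFBR2 is the type II kinase that binds ligand first, and its gene, at chr9:116084293-116175360 on the - strand, had 81.4 CPM (80.0 to 82.9), 67.9 CPM (66.4 to 69.4), 83.5 CPM (82.0 to 85.1) and 86.8 CPM (85.3 to 88.2) in the same order. The levels were close to each other, and the spheroid overlapped the monoculture. Per length, Tgfbr2 made up 65.2% of the 2 receptors in the monoculture, 58.5% in the co-culture, 75.4% in the spheroid and 52.3% in the tumor. Its ratio to Tgfbr1 was 3.06 (2.94 to 3.19) in the spheroid and 1.10 (1.07 to 1.13) in the tumor. Tgfbr1 has 41.0% GC and Tgfbr2 49.6%, and this ratio was not corrected for GC content. Under the correction described below, the log2 ratio of spheroid to tumor was -0.0004 for Tgfbr1 and 0.72 for Tgfbr2.

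The SMAD genes did not move together. Smad2, which encodes a SMAD phosphorylated by the receptor and lies at chr18:76241580-76310963 on the + strand, had 43.5 CPM (42.4 to 44.6) in the monoculture, 46.3 CPM (45.02 to 47.52) in the co-culture and 26.4 CPM (25.6 to 27.3) in the spheroid, with 40.5 CPM (39.5 to 41.5) in the tumor. The spheroid was the low library, with a log2 ratio of -0.72 (-0.78 to -0.66) to the monoculture. Smad3, its close relative that also binds DNA, at chr9:63646767-63757994 on the - strand, had 48.9 CPM (47.8 to 50.1), 46.6 CPM (45.4 to 47.9), 45.5 CPM (44.3 to 46.6) and 24.1 CPM (23.3 to 24.8) in the same order. Here the tumor was low, and the co-culture overlapped both other cultures. The log2 ratio of tumor to monoculture was -1.02 (-1.08 to -0.97), and -0.99 with 1 CPM added. Per length, Smad3 exceeded Smad2 1.87-fold (1.81 to 1.94) in the monoculture, 1.68-fold (1.61 to 1.74) in the co-culture and 2.86-fold (2.75 to 2.98) in the spheroid. In the tumor the ratio was 0.990 (0.951 to 1.03), so the transcripts were about equally abundant there.

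Smad4 and Smad7 were highest in the spheroid and lowest in the tumor. Smad4, the partner shared by all receptor-activated SMADs, at chr18:73639009-73703780 on the - strand, had 68.6 CPM (67.3 to 70.0) in the monoculture, 74.5 CPM (72.9 to 76.1) in the co-culture and 105.9 CPM (104.2 to 107.6) in the spheroid, with 40.4 CPM (39.4 to 41.4) in the tumor. The spheroid had a log2 ratio to the tumor of 1.39 (1.35 to 1.43). Per length, it exceeded Smad2 10.03-fold (9.67 to 10.4) in the spheroid, against 3.95-fold (3.83 to 4.08) in the monoculture, 4.04-fold (3.90 to 4.18) in the co-culture and 2.50-fold (2.41 to 2.58) in the tumor. Without correction for GC content, the spheroid thus held the most Smad4 and the least Smad2 transcript. With 1 CPM added, the log2 ratio of spheroid to monoculture was 0.62 for Smad4 and -0.70 for Smad2. Under the correction for GC content and length described below, they came to 0.72 and 0.42.

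Smad7, the inhibitory SMAD, at chr18:75367529-75395935 on the + strand, had 16.5 CPM (15.8 to 17.1) in the monoculture, 32.8 CPM (31.8 to 33.9) in the co-culture and 36.1 CPM (35.1 to 37.1) in the spheroid, with 7.61 CPM (7.19 to 8.04) in the tumor. Both cultures with fibroblasts were high, and no intervals overlapped. The log2 ratio to the monoculture was 0.99 (0.92 to 1.07) for the co-culture, 1.13 (1.06 to 1.20) for the spheroid and -1.11 (-1.21 to -1.01) for the tumor. The log2 ratio to the tumor was 2.25 (2.16 to 2.34) for the spheroid and 2.11 (2.01 to 2.20) for the co-culture. Relative to Smad3 per length, Smad7 stood at 0.400 (0.382 to 0.420) in the monoculture, 0.837 (0.803 to 0.873) in the co-culture, 0.945 (0.910 to 0.981) in the spheroid and 0.376 (0.353 to 0.401) in the tumor. The monoculture and the tumor overlapped in this ratio.

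**Figure D3:**
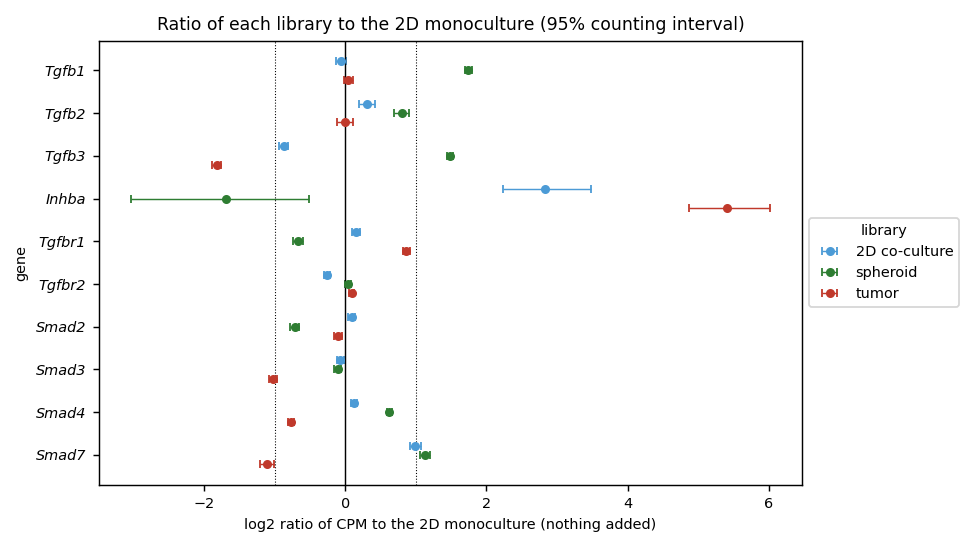
Log2 ratio of the CPM of each gene (rows) in the co-culture, the spheroid and the tumor to that in the monoculture, with nothing added, and 95% counting intervals. Dotted lines mark 2-fold. Spheroid points past 2-fold on the high side are Tgfb1 (1.74), Tgfb3 (1.48) and Smad7 (1.13), and the tumor point of Inhba (5.41) lies farthest from 0.

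The 6 pairwise comparisons share libraries and are therefore not independent. Genes were counted as higher or lower when the log2 ratio with 1 CPM added was over 1 in size. The monoculture and the spheroid differ in dimension and in fibroblasts. The methods name RPMI medium for B16F10 and Dulbecco's modified Eagle medium for the spheroids, so the medium may differ too. From the monoculture to the spheroid, 3 of the 10 genes were higher (Tgfb1, Tgfb3 and Smad7) and 0 lower. Of the 12728 genes, 11.2% were higher and 17.9% lower. The median log2 ratio of the 10 genes was 0.33, against 0.05 for all genes. From the monoculture to the co-culture, 0 were higher and 0 lower, against 3.79% and 9.51% of all genes, and Inhba and Smad7 came closest to the threshold. The medians were 0.10 and 0.01. From the co-culture to the spheroid, 2 were higher (Tgfb1 and Tgfb3) and 1 lower (Inhba), against 9.54% and 8.46% of all genes. The medians were 0.22 and -0.01. These libraries differ in dimension and also in the summed fibroblast markers, 679 CPM in the co-culture against 36.5 CPM in the spheroid.

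Against the tumor, which the cultures were meant to model, the spheroid had 4 of the 10 genes higher (Tgfb3, Smad7, Tgfb1 and Smad4) and 2 lower (Tgfbr1 and Inhba). Of all genes 26.8% were higher and 27.6% lower, and the medians were 0.81 for the 10 genes and 0.08 for all. The co-culture had 1 higher than the tumor (Smad7) and 1 lower (Inhba), against 18.8% and 20.9%, with medians of 0.24 and 0.11. The tumor had 1 higher than the monoculture (Inhba) and 2 lower (Tgfb3 and Smad7), against 14.8% and 18.2%, with medians of -0.05 and -0.14. Within 2-fold of the tumor were 4 of the 10 genes in the spheroid, 8 in the co-culture and 7 in the monoculture. The 6 of 10 genes past 2-fold from the tumor in the spheroid were close to the shares of all genes in that comparison.

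GC content moved with these ratios. Across 12466 genes, Spearman's correlation of the log2 ratio with the GC content of the transcript was 0.46 for spheroid to monoculture, 0.52 for spheroid to tumor and -0.38 for tumor to monoculture, and 0.20 for co-culture to monoculture. It was 0.39 for spheroid to co-culture and 0.46 for co-culture to tumor. The transcripts of the 10 genes ranged from 41.0% GC (Tgfbr1) and 41.4% (Inhba) to 56.9% (Smad7), and the 3 genes with their lowest level in the spheroid, Tgfbr1, Inhba and Smad2 (44.9%), had the lowest GC contents. With the median of genes of like GC content and length removed, the log2 ratio of spheroid to monoculture with 1 CPM added was 1.33 for Tgfb1, 1.22 for Tgfb3, 1.49 for Tgfb2 and 1.36 for Tgfbr2, all past 2-fold. Under this correction Smad7 came to 0.51, within 2-fold, and the directions of Smad2 (0.42) and Tgfbr1 (0.34) turned. In the comparison of spheroid to tumor, corrected values were 2.37 for Tgfb3, 1.5027 for Tgfb2, 1.21 for Smad4 and -2.69 for Inhba, all past 2-fold. Tgfb1 (0.98), Smad7 (0.62) and Tgfbr1 (-0.0004) were then within 2-fold, and Smad2 turned to 0.41. In the ratio of tumor to monoculture, Tgfb3 (-1.02) and Inhba (2.48) stayed past 2-fold, while Smad7 came to -0.06 and Smad3 to -0.20. In the ratio of co-culture to tumor, Smad7 came to 0.98 and Tgfbr1 turned to 0.23. In the ratio of spheroid to co-culture Smad7 turned to -0.27, and in that of spheroid to tumor Tgfbr2 turned to 0.72. Shares and ratios per length of genes within a library were not corrected in this way. The part of GC content in the uncorrected ratios was not tested.

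**Figure D4:**
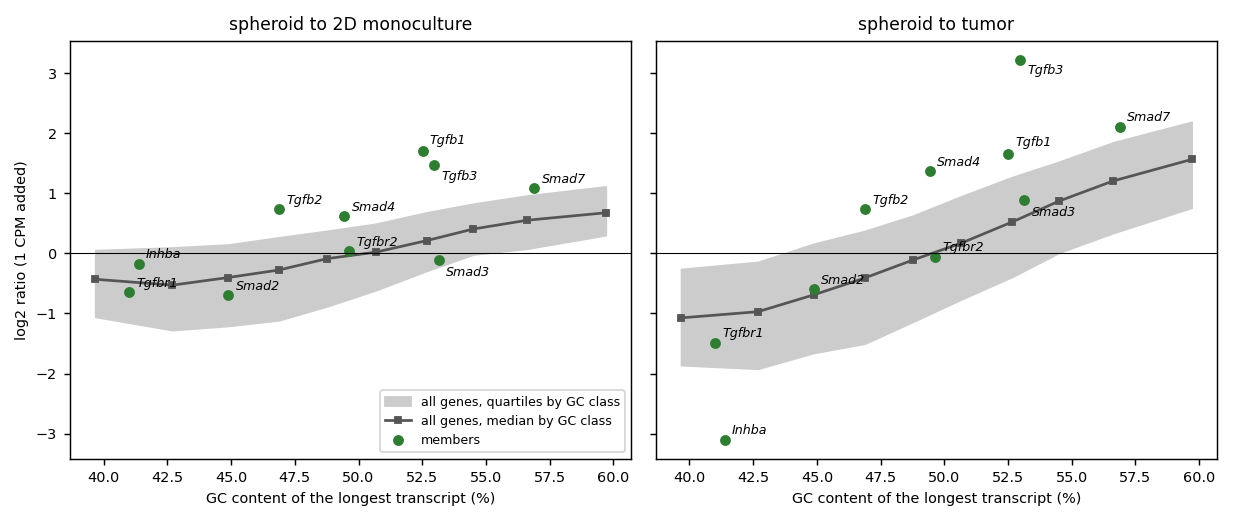
Log2 ratio with 1 CPM added (vertical) against the GC content in percent of the longest transcript (horizontal) for spheroid to monoculture (left) and spheroid to tumor (right). Squares and gray band are the median and quartiles of all genes in 10 GC classes and green points the 10 genes. The class medians run from -0.43 to 0.68 on the left and from -1.07 to 1.56 on the right between the lowest and highest GC class, and Tgfb1, Tgfb2, Tgfb3, Smad4 and Smad7 lie above the band on both sides.

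Around the 10 genes, 96 other genes of the pathway were in the table, and 79 of them averaged 1 CPM or more. For 8 of the 79 this was so only because of the tumor library (Acvr1c, Atoh8, Dcn, Fbn1, Fst, Inhbb, Lrrc32 and Tgfbi), as it was for Inhba among the 10, so a high ratio of the tumor was bound to follow for them and the counts lend the tumor no weight there. In the spheroid, 10 of the 79 were higher and 16 lower than in the monoculture, close to the 11.2% and 17.9% of all genes. In the co-culture, 13 were higher and 6 lower, where all genes gave 3.79% and 9.51%. The tumor had 24 higher and 17 lower than the monoculture (14.8% and 18.2% of all genes), and 29 and 18 of the 95 genes with a read in either. The spheroid had 9 higher and 16 lower than the co-culture (9.54% and 8.46%). Against the tumor, 23 were higher and 35 lower in the spheroid (26.8% and 27.6%), and 18 higher and 25 lower in the co-culture (18.8% and 20.9%). The shares of all genes given here apply to the lists that follow. All ratios of these genes are log2 ratios with 1 CPM added. They were not corrected for GC content or length, and the counts of the 79 genes under that correction are given at the end.

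Of the 14 listed genes that store or activate latent TGF-beta, 12 averaged 1 CPM or more. In the spheroid 1 was higher and 2 were lower than in the monoculture, about the shares of all genes (11.2% and 17.9%). In the tumor 6 of the 12 were higher and 4 lower (6 and 5 of all 14). Lrrc32, Fbn1 and Dcn reached 1 CPM on average only through the tumor. Ltbp3 and Ltbp4 encode proteins that bind latent TGF-beta to the matrix. Ltbp4 had 68.2 CPM in the monoculture, 50.3 CPM in the co-culture and 143.9 CPM in the spheroid, with 12.5 CPM in the tumor. Ltbp3 had 183, 149, 362 and 48.8 CPM in the same order. Both had the order of libraries seen for Tgfb3, with log2 ratios of spheroid to monoculture of 1.07 for Ltbp4 and 0.98 for Ltbp3. Thbs1, which encodes thrombospondin 1, an activator of latent TGF-beta, ran the other way, with 12.1, 33.9, 1.76 and 136 CPM and a ratio of -2.24 in the spheroid. Ltbp1, a further latency protein, had a ratio of -1.34. In the tumor, Fbn1 (7.24) and Dcn (6.10), matrix genes, and Lrrc32 (3.49), the surface anchor of latent TGF-beta, had the highest ratios to the monoculture beside Thbs1 (3.39). Dcn is also on the fibroblast marker list.

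Of 3 co-receptors and decoys, Bambi, which encodes a decoy receptor, had 13.1 CPM in the monoculture, 34.0 CPM in the co-culture and 27.7 CPM in the spheroid, with 23.6 CPM in the tumor, with a ratio of 1.02 in the spheroid. Eng, the co-receptor endoglin, was between 270 and 328 CPM in the cultures and 92.4 CPM in the tumor (ratio to the monoculture -1.62). Tgfbr3, betaglycan, stayed within 2-fold, between 7.53 and 11.1 CPM.

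Among the 10 listed activin-related ligands and antagonists, of which 6 averaged 1 CPM or more, 3 were higher in the spheroid than in the monoculture and 0 lower. They were Gdf15 (2.31), a stress-induced family member, Inha (1.90), the inhibin alpha subunit, and Fstl3 (1.48), an activin-binding antagonist. Inha had 1.89 CPM in the monoculture, 2.39 CPM in the co-culture and 9.78 CPM in the spheroid, with 3.39 CPM in the tumor. It was highest in the spheroid, where Inhba was lowest with 8 reads, and lowest in the monoculture, where Inhba had 27 reads. In the tumor 3 of the 6 were higher and 1 lower than in the monoculture (4 and 1 of all 10). Inhbb and Fst reached 1 CPM on average only through the tumor. Inhbb, the beta B subunit, had 0 reads in the monoculture, 3 in the co-culture, 6 in the spheroid and 2314 reads (14.2 CPM) in the tumor. Fst, the antagonist follistatin, had 5.22 CPM in the tumor and at most 0.122 CPM in the cultures, Gdf15 had a ratio of 1.04, and Gdf11 was lower in the tumor (-1.16). Of the 4 activin receptor genes, 0 were past 2-fold from monoculture to spheroid. Acvr1c, a type I receptor, had 4.47 CPM in the tumor and 0 reads in the spheroid and the monoculture.

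Of the 22 listed SMAD3 and SMAD4 target genes, 21 averaged 1 CPM or more, Tgfbi only through the tumor. In the spheroid 3 were higher and 3 lower than in the monoculture (median -0.06), near the 11.2% and 17.9% of all genes. In the co-culture 9 were higher and 0 lower (median 0.75), where 3.79% and 9.51% of all genes were. In the tumor 14 were higher and 3 lower (median 1.34), beside 14.8% and 18.2% of all genes. The spheroid had 1 higher and 9 lower than the co-culture (median -0.92), and 4 higher and 14 lower than the tumor (median -2.26). Cyr61, which encodes a matricellular protein, had 250 CPM in the monoculture, 590 CPM in the co-culture and 1094 CPM in the spheroid, with 74.7 CPM in the tumor. The spheroid was thus the highest library for Cyr61, with a ratio to the monoculture of 2.12. Junb (1.45), a transcription factor gene, was higher in the spheroid and Skil (-1.30), a SMAD co-repressor gene that is also on the list of SMAD regulators, was lower. In the tumor, the matrix and contractile genes Col1a1 (7.57), Postn (7.26), Acta2 (6.43) and Tgfbi (5.77) had the highest ratios. Col1a1 is on the fibroblast marker list, whose sum was 2728 CPM in the tumor and 679 CPM in the co-culture against 36.5 CPM in the spheroid, and the part of fibroblast or host RNA in these counts was not tested.

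**Figure D5:**
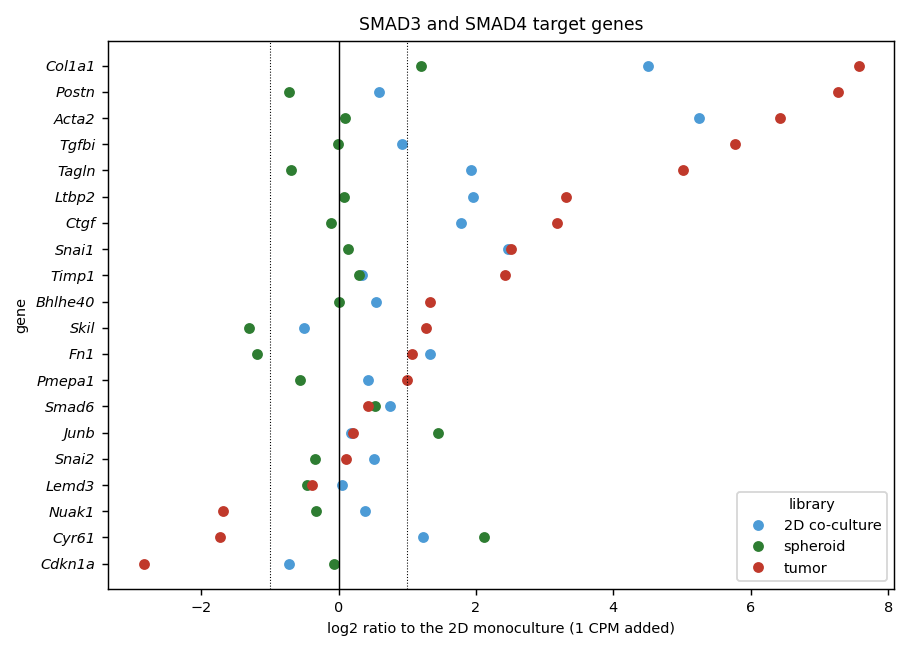
Log2 ratio with 1 CPM added to the monoculture (horizontal) of 20 of the SMAD3 and SMAD4 target genes averaging 1 CPM or more (rows, ordered by the tumor) in the co-culture, the spheroid and the tumor. Dotted lines mark 2-fold. Of the tumor points, 13 lie past 2-fold on the right, led by Col1a1 (7.57), while 15 of the spheroid points lie within 2-fold.

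Of the 14 SMAD inhibitors and regulators, 1 was higher and 5 were lower in the spheroid than in the monoculture (11.2% and 17.9% of all genes), and 2 were higher and 4 lower in the tumor (14.8% and 18.2%). The lowest ratios in the spheroid belonged to Usp15 (-1.94), a deubiquitinase that acts on the receptor and its SMADs, Zfyve9 (-1.86), the anchor that presents SMAD2 to the receptor, Wwp1 (-1.52), a ubiquitin ligase, and Trim33 (-1.51), which binds SMADs. In the tumor the ubiquitin ligase genes Nedd4l (-2.23) and Smurf1 (-1.74) and the co-repressor gene Tgif1 (-1.56) were lower, and Skil (1.27) was higher. Of the 12 kinases and partners outside the SMAD branch, 0 were higher and 5 lower in the spheroid, beside the same shares of all genes, among them Ripk1 (-2.32), Map3k7 (-2.09), which encodes the kinase TAK1, Rock2 (-1.85) and Traf6 (-1.34). The tumor had 1 higher, Map2k6 (1.16), and 2 lower, Map2k3 (-1.59) and Mapk14 (-1.06), which encodes p38.

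The neighboring bone morphogenetic protein (BMP) arm was listed with 14 genes, of which 7 averaged 1 CPM or more. Of these 7, 1 was higher in the spheroid than in the monoculture, Acvrl1 (1.56), a type I receptor gene known from endothelium. Another 1 was lower, Bmpr1a (-1.12), a BMP receptor gene, beside 11.2% and 17.9% of all genes. In the tumor 0 of the 7 were higher and 1 was lower, Smad9 (-1.75), beside 14.8% and 18.2%. Outside the 7, the ligand genes Bmp2 (1.73) and Bmp6 (1.62), the antagonist gene Nog (1.57) and the receptor gene Bmpr1b (1.38) were higher. These 4 averaged under 1 CPM, so the shares of all genes do not cover them. Acvrl1 had 49.6 CPM in the monoculture, 57.0 CPM in the co-culture and 147.9 CPM in the spheroid, with 58.2 CPM in the tumor. Of 8 listed BMP targets, 5 of which averaged 1 CPM or more, Id3, an inhibitor of differentiation, was lower in the spheroid (-2.01) and in the tumor (-1.55), with 59.3, 58.3, 13.9 and 19.6 CPM in the same order, and 0 were higher in either.

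The genes whose pattern over the 4 libraries was closest were found by Euclidean distance of centered log2(CPM + 1) among 9588 genes averaging 10 CPM or more. For Tgfb1 they were 5730508B09Rik (distance 0.0608), Guca1a (0.0695) and Hap1 (0.129), against a median distance of 1.65. For Tgfb3 they were Rhbdf2 (0.209), Kctd13 (0.218) and Rab6b (0.230). For Tgfb2 they were Sdhaf3 (0.0209), Ndufb6 (0.0435) and Rad1 (0.0495), and for Inhba they were Rgs2 (0.213), Car6 (0.522) and D17H6S56E-5 (0.557). Hap1, for example, had 42.3 CPM in the monoculture, 43.7 CPM in the co-culture and 158.7 CPM in the spheroid, with 45.5 CPM in the tumor. With 4 libraries, likeness of this kind describes the order and size of the levels only.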

How the data were processed

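RNA of 4 libraries, 1 per condition, was prepared from oligo(dT)-enriched mRNA and sequenced as paired ends. The values deposited by the authors are raw read counts, 1 row per gene symbol and 1 column per library, without normalization. The submitters' processing notes name Trimmomatic, STAR, featureCounts and the mm10 build, without versions or strand setting. Counts were scaled to CPM with TMM factors (edgeR 4.0.16, R 4.3.3). The remaining steps ran in Python 3.11.15 (scipy 1.17.1, pandas 2.3.3, numpy 2.4.6). Ratios of single genes had nothing added. Counts of genes past 2-fold, medians and lists used 1 CPM added, over genes averaging 1 CPM or more, except where a count over all listed genes is given.

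Intervals of CPM and of log2 ratios are exact Clopper-Pearson (binomial) intervals of the reads. No test across conditions was made, and scripts were checked on simulated data. Gene places, exonic lengths (transcripts matched to RefSeq) and GC content came from GENCODE M21, on the same build, and 97.9% of the genes had a GC value. The correction for GC and length removes the median log2 ratio of 10 by 10 classes. Promoters came from RefSeq. The 10 genes, the pathway and marker lists and the motifs were chosen with earlier results of these data known. Of each pathway list, up to 4 genes with the largest ratio of spheroid and of tumor to the 2D monoculture are named, with Bmp2, Bmp6, Nog and Bmpr1b named after their values were seen, and for each ligand gene the 3 most alike genes. The values of 1 gene of the lists are not reported here, though it is in the counts. Alternatives were total counts, upper quartiles, size factors of DESeq2 1.42.0, TMM over genes expressed in the 2D monoculture, the GC and length correction, 0.1 CPM added, a fold of 1.5 and no minimum level. The study itself simulated technical replicates, which was not done here.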

Additional observations from a re-analysis of the deposited data

How the results depend on the processing

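No paired analysis was possible because there was only 1 library for each condition. For the same reason no replicate could be left out. For each ratio of the 10 genes, 6 alternatives were computed. With nothing added, 20 ratios were over 2-fold. Their direction could not turn under other scaling, whose shifts given below are all smaller than 2-fold, or with 1 CPM added. Only the GC and length correction could turn them, and it turned none of the 20. Of all 60 ratios, 45 kept their direction in all 6 alternatives. Under the GC and length correction, Tgfbr1 of spheroid to tumor came to -0.0004. Total counts moved every log2 ratio of spheroid to tumor by -0.36, of 2D co-culture to tumor by -0.27 and of tumor to 2D monoculture by 0.24, upper quartiles moved the last by 0.25, and TMM over genes expressed in the 2D monoculture moved it by 0.28. The DESeq2 size factors moved none by more than 0.05.

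Of the counts of the 10 genes past the threshold, 63 stayed within 1.5 times and 21 did not. A fold of 1.5 gave 5 higher and 2 lower for spheroid to 2D monoculture, 2 higher and 1 lower for 2D co-culture to 2D monoculture, 3 lower for spheroid to 2D co-culture, 4 higher and 2 lower for 2D co-culture to tumor, and 2 higher and 4 lower for tumor to 2D monoculture. Upper quartiles and 0.1 CPM added each gave 1 higher for 2D co-culture to 2D monoculture. For tumor to 2D monoculture, total counts, upper quartiles and TMM over genes expressed in the 2D monoculture each gave 2 higher and 1 lower, and the DESeq2 size factors and the GC and length correction each gave 1 lower. The correction gave 1 lower for spheroid to tumor and 0 higher for 2D co-culture to tumor. The shares of all genes were not computed under these alternatives, so these counts show only how the choice of processing moved them.

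Of the 79 other pathway genes, the GC and length correction left 6 higher and 8 lower for spheroid to 2D monoculture, 3 lower for 2D co-culture to 2D monoculture, 3 higher for spheroid to 2D co-culture, 14 higher for spheroid to tumor, 10 higher for 2D co-culture to tumor and 6 lower for tumor to 2D monoculture. The shares of all genes under this correction were not computed, so whether all genes moved alike is not known. The cause was not tested. Of the counts of genes past 2-fold in single lists, 667 stayed within 1.5 times in the alternatives and 89 did not. Inhba rests on 8 reads in the spheroid and 27 in the 2D monoculture, so its level there is known least well.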
